A study of Mus musculus with 18 samples.

Results

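The 7 genes described here are Arl4c, its paralogues Arl4a and Arl4d, the cytohesin genes Cyth1, Cyth2 and Cyth3, and Arf6. They were chosen by name, as a small GTPase family and the route it acts on, and all 7 were found by their Ensembl identifiers among the 49671 genes of the count table. RNA sequencing of poly(A) RNA covered 18 samples of mouse embryonic stem (ES) cells grown in 3D in growth factor-depleted Matrigel, divided into 6 groups of 3. The wild-type line was E14, given in the labels as strain 12910la, used at passage 20 and cultured for 48 h in N2B27 medium with the solvent DMSO, with 3 µM of the Gsk3 inhibitor CHIR99021 (CH), with 2i (3 µM CHIR99021 and 0.4 µM of the Mek inhibitor PD0325901), or with Fgf2 at 12 ng/ml together with Activin A at 20 ng/ml (Fgf2/Activin). The remaining groups were Esrrb fl/fl ES cells at passage 25, derived from Acr-EGFP transgenic mice and carrying a tamoxifen-inducible Cre (MerCreMer), which were left untreated or given 4-hydroxytamoxifen (4OHT) for 1 day and then grown for 24 h in 3D with 3 µM CHIR99021 in both arms. All cells had been maintained in 2i with Lif before the 3D culture. The Esrrb fl/fl samples came from 1 line with no Cre-free arm, so that 4OHT itself and the deletion cannot be told apart, and line, passage and time of culture cannot be told apart from each other where both kinds of cell are set side by side.

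Arl4 proteins are small GTPases of the Arf-like branch that sit at the plasma membrane when loaded with GTP. There they recruit cytohesins, exchange factors that in turn load Arf6 with GTP, and Arf6 then acts on endocytic recycling, phosphoinositide production and the cortical actin cytoskeleton. Arl4c also feeds into Rac and Cdc42, GTPases that shape protrusions and, for Cdc42, apical-basal polarity, and in cultured epithelial cells its expression is known to be raised by Wnt and growth factor signalling together. Arl4c was among the candidates that the study shortlisted on these same samples, so its direction between CH and DMSO and after 4OHT is a description and not independent evidence. The study's shortlist also required Esrrb binding in published ChIP-seq data, which were not examined here, and it reports Arl4c as bound. Forced expression of Arl4c did not bring about epithelialization in CH medium in the study. Because the samples are bulk cultures, fewer cells expressing a gene and less RNA per cell cannot be told apart.

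On GRCm38, Arl4c (ENSMUSG00000049866) lies at chr1:88673125-88702221 on the minus strand, Arl4a (ENSMUSG00000047446) at chr12:40005447-40038025 on the minus strand and Arl4d (ENSMUSG00000034936) at chr11:101665541-101667832 on the plus strand. The cytohesin genes lie at chr11:118132019-118248592 on the minus strand (Cyth1, ENSMUSG00000017132), chr7:45806637-45814581 on the minus strand (Cyth2, ENSMUSG00000003269) and chr5:143622447-143710250 on the plus strand (Cyth3, ENSMUSG00000018001). Arf6 (ENSMUSG00000044147) lies at chr12:69372150-69373783 on the plus strand. All 7 are annotated as protein coding. The Arl4 proteins have 192 residues (Arl4c), 200 residues (Arl4a) and 201 residues (Arl4d). Arl4c shares 70.8% of its aligned residues with Arl4a and 59.9% with Arl4d, against 46.3% with Arf6. The 3 cytohesins are closer to each other, at 79.9% to 83.8% identical residues. Despite this, no stretch of 50 bases in the transcripts of Arl4c, Arl4d, Cyth1 or Cyth3 occurred in another gene. For Arl4a, 2.39% of such stretches also occurred elsewhere. Cyth2 and Arf6 overlap genes on the opposite strand, Gm45444 over 11.06% of the Cyth2 exon bases and Gm9887 over 13.6% of the Arf6 exon bases. Since the reads were counted without regard to strand, reads in those stretches cannot be assigned to one gene or the other.

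The 250 bases before the start of transcription were read from RefSeq (GRCm38.p6) for the members with an entry, which were 6 of 7, with 9 promoters between them. The promoters shown are of Arl4c and Cyth3, because these genes had similar patterns across the wild-type cultures, and of Arl4a, because it held the only match to the binding half-site of oestrogen-related receptors (AAGGTCA on either strand), the family that includes Esrrb. They lie at chr1:88702192-88702441 on the minus strand (Arl4c), chr5:143622197-143622446 on the plus strand (Cyth3) and chr12:40037988-40038237 on the minus strand (Arl4a), and capitals mark the half-site.
Arl4c: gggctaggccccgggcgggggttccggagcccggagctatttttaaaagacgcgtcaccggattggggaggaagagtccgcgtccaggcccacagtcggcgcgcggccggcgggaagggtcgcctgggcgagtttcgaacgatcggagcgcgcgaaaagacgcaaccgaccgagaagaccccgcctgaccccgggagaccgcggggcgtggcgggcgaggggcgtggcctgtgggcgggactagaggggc
Cyth3: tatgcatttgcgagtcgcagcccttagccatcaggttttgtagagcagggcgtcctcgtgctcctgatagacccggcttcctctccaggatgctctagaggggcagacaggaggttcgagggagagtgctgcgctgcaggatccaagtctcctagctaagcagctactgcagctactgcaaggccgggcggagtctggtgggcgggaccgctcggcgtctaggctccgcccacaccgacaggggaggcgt
Arl4a: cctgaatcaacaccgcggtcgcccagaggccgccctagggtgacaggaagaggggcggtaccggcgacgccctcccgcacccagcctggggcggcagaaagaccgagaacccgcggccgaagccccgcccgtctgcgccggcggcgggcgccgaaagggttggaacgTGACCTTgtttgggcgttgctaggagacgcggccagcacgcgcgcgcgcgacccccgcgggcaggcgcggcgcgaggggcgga
The Arl4a half-site lay 83 to 77 bases before the start, on the strand opposite to the gene. Such a half-site was present in 1 of the 9 member promoters and in 4.08% of 32851 mouse promoters of the same length. The Tcf/Lef letters ATCAAAG, searched on both strands, were in 0 of the 9 and in 3.21% of all promoters. The GC box GGGCGG was in 7 of the 9 and in 32.7% of all promoters, 2 copies in that of Arl4c and 3 in that of Cyth3. These stretches were rich in G and C, at 71.6% for Arl4c, 62.4% for Cyth3 and 74.8% for Arl4a against a median of 52.4% for all promoters. A match describes letters in this window and does not show binding, and the lack of a match does not show that binding is absent.

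The libraries of the wild-type cultures held 25388139 to 37158661 gene-assigned reads and those of the Esrrb fl/fl line 19915222 to 20140699. Levels are given as CPM, read counts relative to the TMM-scaled library size, and the scaling was done separately for the 12 wild-type and the 6 Esrrb fl/fl samples. All 7 members passed the filter on low counts. The least covered value was that of Arl4d, with 27 reads in its lowest sample. Esrrb itself had 2680, 2146 and 2109 reads in the untreated and 1211, 1333 and 1250 in the 4OHT-treated samples, a log2 fold change of -0.99 ± 0.10 (SE) in a count over the whole gene. In every group replicate 1 stood apart from replicates 2 and 3, with a chi-square per gene of 11.8 to 65.9 in pairs that include it against 1.46 to 8.57 in the others. Results that rest on replicate 1 are therefore also given without it, in a fit on replicates 2 and 3. The ES cell markers Pou5f1, Sox2, Nanog, Zfp42 and Esrrb were detected in all groups.

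Levels of different genes were compared only per kilobase of exon. On that scale Arf6, the GTPase at the end of the route, was the most abundant member in every group, with group means of 87.5 to 121 CPM per kb. Cyth2 was the most abundant cytohesin, with means of 15.6 to 21.4 CPM per kb. The means of Cyth1 stayed between 0.759 and 1.82 CPM per kb and those of Cyth3 between 1.09 and 2.37. In relative terms Arl4c had the widest range of group means among the members, from a mean of 1.64 CPM per kb in 2i to 32.3 in DMSO. Arl4a means ran from 2.04 to 5.21 CPM per kb and Arl4d means from 1.10 to 7.19.

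**Figure D1:**
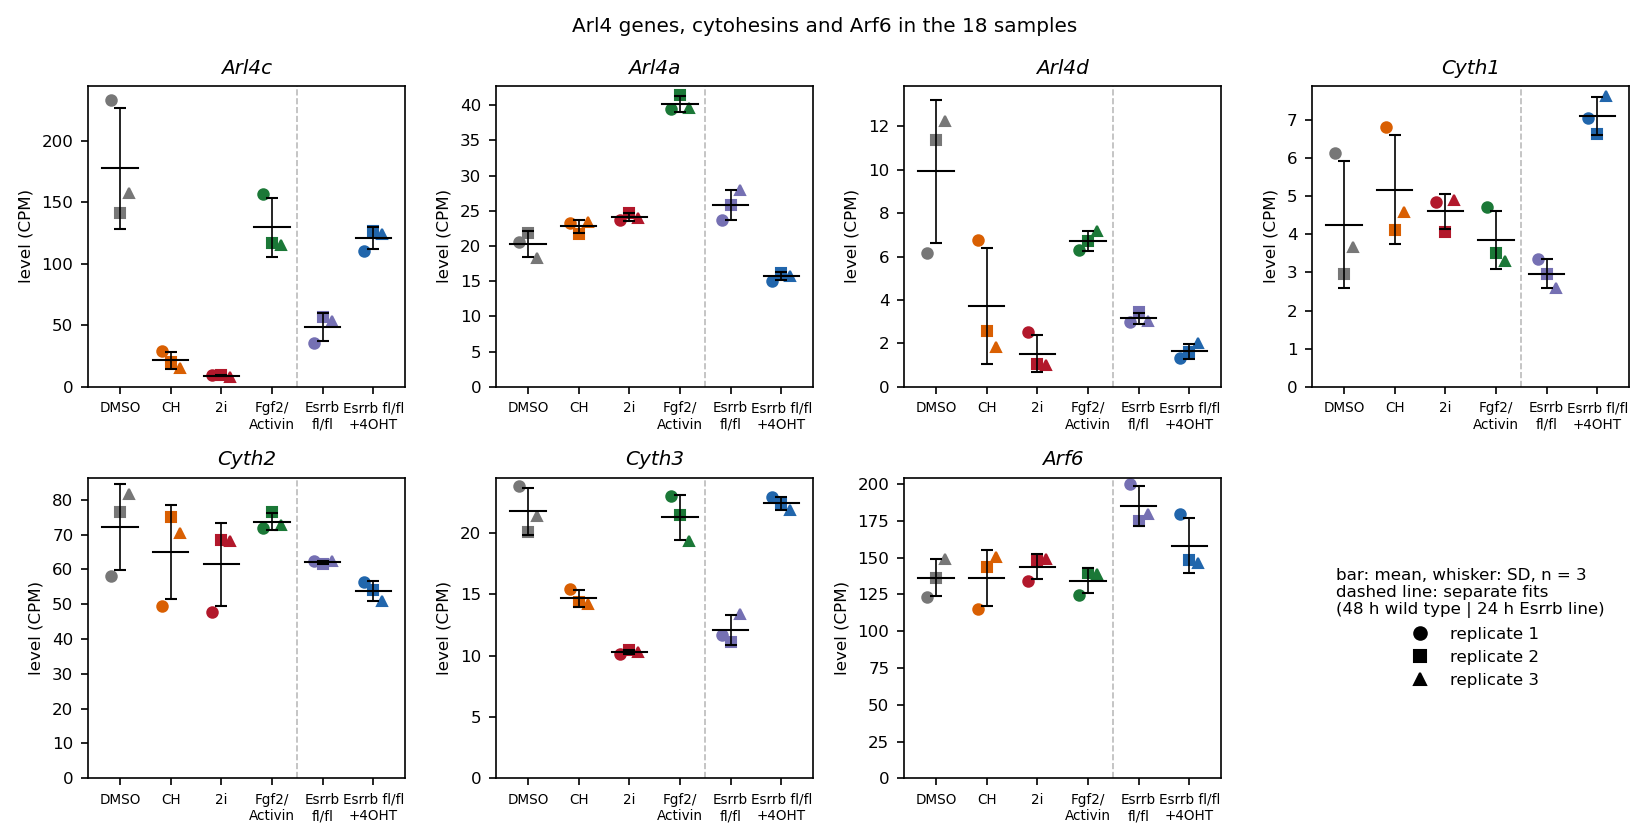
Level of each member (CPM, linear axis from 0) in each of the 18 samples, by group, with the mean and SD of 3 samples and a symbol for each replicate number. Arl4c is highest in DMSO and Fgf2/Activin and lowest in 2i, and for Cyth2 and Arf6 replicate 1 is the lowest sample in each of the 4 wild-type cultures.

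Among the wild-type cultures Arl4c was high in those without Gsk3 inhibitor and low in those with it. It measured 233, 142 and 158 CPM in DMSO and 29.0, 20.1 and 15.4 CPM in CH, for replicates 1, 2 and 3 in turn. In 2i it measured 9.22, 9.34 and 8.37 CPM, and in Fgf2/Activin 157, 117 and 115 CPM. Every wild-type sample with CHIR99021 lay below every wild-type sample without it, and within each pair of like cultures the DMSO and Fgf2/Activin samples overlapped while the CH and 2i samples did not. Replicate 1 was the highest in DMSO, CH and Fgf2/Activin.

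Between CH and DMSO, Arl4c fell by 3.04 on the log2 scale, an 8.24-fold lower level (95% confidence interval 5.63 to 12.1) with an adjusted p of 4.53e-06. All adjusted p-values come from the quasi-likelihood test of edgeR, adjusted by the Benjamini-Hochberg method over all genes tested, and a gene was called when its adjusted p was under 0.01 and its log2 fold change beyond 1 in either direction. Within each replicate number the level was 8.04-fold, 7.05-fold and 10.2-fold lower. In 2i against Fgf2/Activin, Arl4c was 14.4-fold lower (9.66 to 21.5; edgeR adjusted p = 6.59e-07). The order of the means was DMSO (177 ± 48.9 CPM, SD, n = 3), Fgf2/Activin (129 ± 23.6), CH (21.5 ± 6.89) and 2i (8.98 ± 0.531). In the main fit, neighbours in this order differed by test only at the step from Fgf2/Activin to CH (6.02-fold, edgeR adjusted p = 1.24e-05), and not between DMSO and Fgf2/Activin (log2 fold change -0.45, 95% interval -0.96 to 0.05, edgeR adjusted p = 0.363). DMSO and Fgf2/Activin overlapped through Fgf2/Activin replicate 1. Within replicates 1, 2 and 3 Arl4c was 1.49-fold, 1.21-fold and 1.37-fold lower in Fgf2/Activin. With other fits or samples left out, this log2 fold change lay between -0.61 and -0.21, with adjusted p-values (edgeR or DESeq2) of 0.00344 to 0.716.

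The step from CH to 2i, which differs by the Mek inhibitor, depended on the fit. Arl4c was 2.40-fold lower in 2i than in CH (log2 fold change -1.26 ± 0.25, SE), in 3 of 3 replicate numbers, and with an edgeR adjusted p of 0.0109 it was not called. In a fit with the replicate number as block, the log2 fold change was -1.22 and the edgeR adjusted p 0.000208, which called it. Without replicate 1 it was -1.01 with an edgeR adjusted p of 1.27e-05, also called.

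Markers of cell states and of other cell types differed between the same cultures as Arl4c. The 5 ES cell markers summed to 760.4 to 779.5 CPM in DMSO and 905 to 923 CPM in Fgf2/Activin, against 2031 to 2345 CPM in CH and 2863 to 2951 CPM in 2i. The 4 markers of the epiblast after implantation (Fgf5, Otx2, Dnmt3b and Pou3f1) summed to 2340 to 3673 CPM in DMSO and 2860.1 to 3459 CPM in Fgf2/Activin, against 474 to 868 CPM in CH and 305 to 440.0 CPM in 2i, with Dnmt3b as the largest part. Each of these sums separated the cultures with Gsk3 inhibitor from those without it. Pou5f1, the largest part of the ES cell sum, did not, with 705 to 772 CPM in Fgf2/Activin and 661 to 920 CPM in CH. The 4 mesendoderm markers T, Mixl1, Eomes and Gsc summed to 8.85 to 13.8 CPM in DMSO, 11.48 to 17.5 CPM in Fgf2/Activin, 441 to 670.4 CPM in CH and 83.4 to 118 CPM in 2i. That sum followed T (0.344 to 0.578 CPM in DMSO and 436 to 664 CPM in CH), whereas Eomes was at 8.32 to 13.3 CPM in DMSO and 0.953 to 3.68 CPM in CH, and Gsc was under 1 CPM in all 4 cultures. The 6 primitive endoderm markers summed to 8.93 to 10.2 CPM in DMSO and 5.83 to 6.40 CPM in Fgf2/Activin, against 2.64 to 3.61 CPM in CH and 1.56 to 1.87 CPM in 2i. Between DMSO and CH this sum followed Dab2 (5.49 to 5.82 and 0.999 to 1.70 CPM), whereas Pdgfra was at 0.240 to 0.282 CPM in DMSO and 0.440 to 0.919 CPM in CH. The 5 fibroblast markers summed to 16.6 to 49.3 CPM in DMSO and 13.2 to 25.9 CPM in Fgf2/Activin, against 5.597 to 7.62 CPM in CH and 2.26 to 2.59 CPM in 2i, and Postn was at 0 in all of these cultures but CH. Most of the DMSO sum was Thy1 (14.9 to 47.9 CPM in DMSO and 3.68 to 7.06 CPM in CH), while Col1a2 overlapped between DMSO and CH (1.06 to 1.39 and 0.392 to 2.65 CPM). The 5 trophoblast markers summed to 8.60 to 22.2 CPM in DMSO, 7.26 to 11.4 CPM in Fgf2/Activin, 45.9 to 94.8 CPM in CH and 11.1 to 14.1 CPM in 2i. The trophoblast gene Cdx2 was at 45.3 to 91.8 CPM in CH and at most 0.154 CPM in DMSO, whereas Krt7 was at 0.240 to 2.72 CPM in CH and 8.21 to 20.7 CPM in DMSO. The part of these cells and states in the levels of the members was not tested.

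Arl4d was lower with inhibitors, like Arl4c, except in replicate 1 of the CH cultures. It measured 6.16, 11.4 and 12.3 CPM in DMSO and 6.77, 2.58 and 1.84 CPM in CH. In 2i it measured 2.51, 1.06 and 0.999 CPM and in Fgf2/Activin 6.28, 6.73 and 7.19 CPM. The DMSO and CH samples overlapped through replicate 1 alone, and the 2i samples lay below all samples of DMSO and Fgf2/Activin. Between CH and DMSO the level was 2.65-fold lower and not called (log2 fold change -1.41 ± 0.48, SE, edgeR adjusted p = 0.0346). Within replicate numbers it was 1.10-fold higher for replicate 1 and 4.41-fold and 6.67-fold lower for replicates 2 and 3. On leaving out replicate 1 it fell by 2.39 on the log2 scale (edgeR adjusted p = 5.74e-09), and without CH replicate 1 alone by 2.16 (edgeR adjusted p = 0.00247). Relative to Fgf2/Activin, Arl4d in 2i fell by 2.15 on the log2 scale (4.44-fold, 2.06 to 9.59, edgeR adjusted p = 0.00421). That call was lost on leaving out 2i replicate 2 (edgeR adjusted p = 0.0217), 2i replicate 3 (0.0219), Fgf2/Activin replicate 2 (0.0115) or Fgf2/Activin replicate 3 (0.0128). Without replicate 1 the fall was 2.74 and the call was kept. The means were ordered DMSO, Fgf2/Activin, CH and 2i, and neighbouring groups overlapped at each step, with edgeR adjusted p-values of 0.629, 0.175 and 0.170. Each overlap came through replicate 1, and replicates 2 and 3 kept this order without overlap. With other fits or samples left out, the lowest adjusted p-values (edgeR or DESeq2) were 0.000716, 6.03e-07 and 0.00150 for these steps. Without replicate 1 the last 2 steps were called and the first was not.

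Arl4a had another pattern, with Fgf2/Activin standing above the other cultures. It measured 20.6, 21.9 and 18.2 CPM in DMSO, 23.2, 21.8 and 23.3 CPM in CH and 23.6, 24.7 and 24.0 CPM in 2i. In Fgf2/Activin it measured 39.4, 41.4 and 39.5 CPM. These Fgf2/Activin samples lay above all 9 other wild-type samples, and DMSO and CH overlapped. Against DMSO the level was 1.98-fold higher in Fgf2/Activin (log2 fold change 0.99 ± 0.09, SE, edgeR adjusted p = 8.20e-05), in 3 of 3 replicate numbers. This was just under the minimum fold, and it was called without DMSO replicate 2 (1.05), without Fgf2/Activin replicate 1 (1.00) and without replicate 1 (1.01, log2 scale). Between CH and DMSO the log2 fold change of Arl4a was 0.17, with a 95% interval of -0.02 to 0.36 (edgeR adjusted p = 0.132). In 2i against Fgf2/Activin it was -0.74 (edgeR adjusted p = 3.35e-05), past the adjusted p and under the minimum fold.

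The make-up of the Arl4 transcripts changed with these levels. Per kilobase of exon, Arl4c made up 75.8% ± 8.56 (SD, n = 3) of the summed Arl4 level in DMSO and 69.7% ± 4.34 in Fgf2/Activin. It made up 41.0% ± 2.45 in CH and 28.0% ± 2.21 in 2i. In 2i Arl4a was the largest part, at 53.8% ± 6.12. The summed level was 42.1 ± 6.65 CPM per kb in DMSO, 33.7 ± 3.94 in Fgf2/Activin, 9.57 ± 3.19 in CH and 5.87 ± 0.624 in 2i. No wild-type sample with CHIR99021 reached the lowest Arl4c share or sum of the wild-type samples without it.

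**Figure D2:**
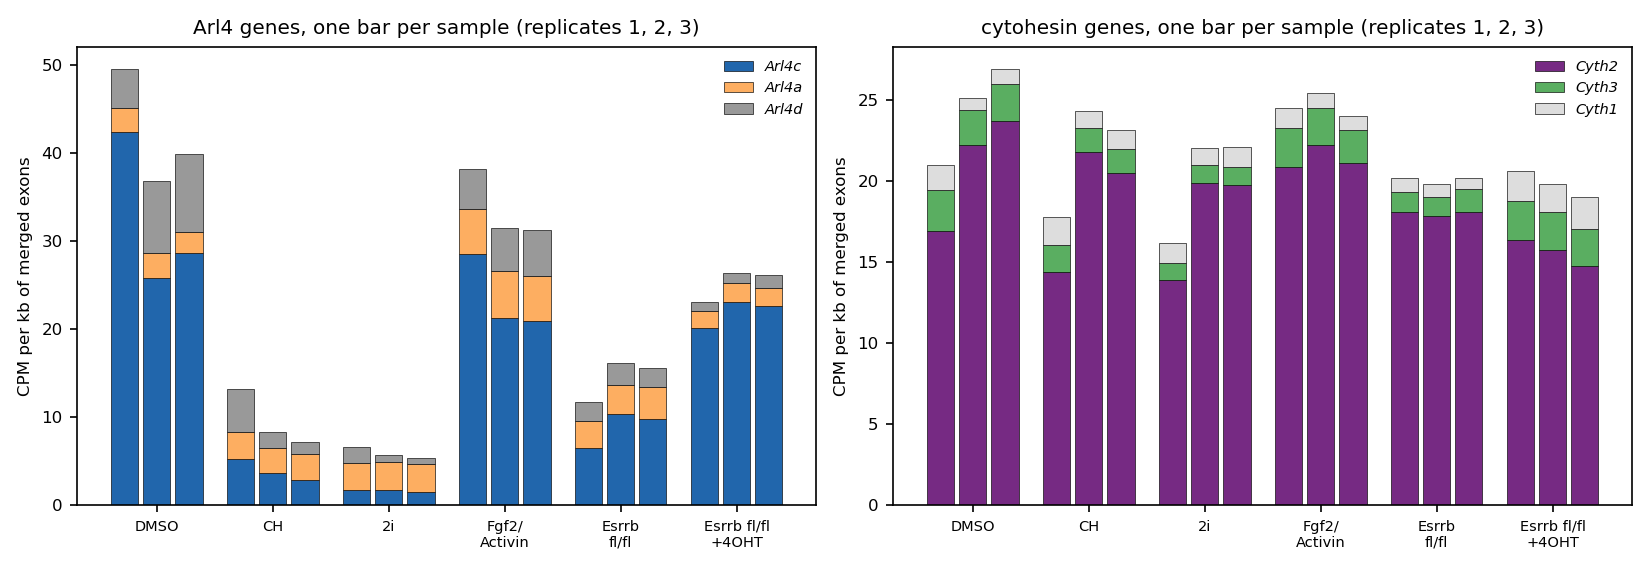
Level per kilobase of merged exons, stacked by gene, for the Arl4 genes (left) and the cytohesin genes (right), with 1 bar per sample in the order of replicates 1, 2 and 3. Arl4c makes up 75.8% of the Arl4 sum in DMSO and 28.0% in 2i on average, and Cyth2 makes up most of the cytohesin sum in every sample.

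Among the cytohesins, Cyth3 (also known as Grp1) followed the order of Arl4c over a smaller range. It measured 23.8, 20.0 and 21.4 CPM in DMSO, 15.5, 14.3 and 14.2 CPM in CH, 10.1, 10.5 and 10.3 CPM in 2i and 23.0, 21.4 and 19.4 CPM in Fgf2/Activin. The CH samples lay between the 2i samples and those of DMSO and Fgf2/Activin, with no overlap at either side. In 2i Cyth3 fell by 1.04 on the log2 scale against Fgf2/Activin (2.06-fold, 1.76 to 2.42, edgeR adjusted p = 1.13e-05) and by 1.08 against DMSO (edgeR adjusted p = 9.48e-06). Without replicate 1 these changes were -0.97 and -0.98, under the minimum fold, with edgeR adjusted p-values of 1.39e-07 and 1.25e-07. The first also went under the minimum fold without Fgf2/Activin replicate 1, at -0.98. Between CH and DMSO the log2 fold change was -0.57 ± 0.10 (SE), which passed the adjusted p (edgeR, 0.00114) and not the minimum fold. DMSO and Fgf2/Activin, neighbours in the order, had a log2 difference of -0.03 (95% interval -0.26 to 0.19), and 2i against CH one of -0.51 (edgeR adjusted p = 0.0139). Across the 12 wild-type samples the log2 levels of Arl4c and Cyth3 had a Pearson r of 0.98, and those of Arl4c and Arl4d one of 0.88. These points share 4 culture conditions and are given as a description.

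Cyth1, Cyth2 and Arf6 were not called in any comparison of the wild-type cultures. Cyth2 (also known as ARNO) measured 58.2, 76.6 and 81.7 CPM in DMSO, 49.6, 74.9 and 70.6 CPM in CH, 47.8, 68.4 and 68.1 CPM in 2i and 71.8, 76.6 and 72.7 CPM in Fgf2/Activin. Arf6 measured 124, 137 and 149 CPM in DMSO, 115, 144 and 151 CPM in CH, 134, 148 and 149 CPM in 2i and 124, 139 and 139 CPM in Fgf2/Activin. For both genes replicate 1 was the lowest sample in all 4 cultures, and the groups overlapped except for Cyth2 between 2i and Fgf2/Activin. Between CH and DMSO the log2 fold change was -0.15 for Cyth2 (95% interval -0.55 to 0.25) and 0.00018 for Arf6 (-0.23 to 0.23). Cyth1 measured 6.13, 2.97 and 3.66 CPM in DMSO and 6.81, 4.12 and 4.60 CPM in CH, a log2 difference of 0.28 (-0.35 to 0.91). In 2i it measured 4.84, 4.07 and 4.90 CPM and in Fgf2/Activin 4.72, 3.51 and 3.30 CPM. All 4 cultures overlapped for Cyth1, which had 50 to 230 reads a sample over the series.

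In the Esrrb fl/fl line, which was kept in CH in both arms, 4OHT treatment went with a higher Arl4c level. Arl4c measured 35.3, 56.7 and 53.7 CPM in untreated and 111, 127 and 124 CPM in 4OHT-treated cells. All 4OHT-treated samples lay above all untreated ones. The level was 2.48-fold higher (1.95 to 3.17, log2 fold change 1.31 ± 0.15, SE, edgeR adjusted p = 0.000141), by 3.13-fold, 2.24-fold and 2.32-fold within replicates 1, 2 and 3.

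The paralogues were lower in this comparison. Arl4a measured 23.7, 25.9 and 28.0 CPM in untreated and 15.1, 16.2 and 15.8 CPM in 4OHT-treated cells. Arl4d measured 2.97, 3.43 and 3.05 CPM in untreated and 1.31, 1.62 and 2.01 CPM in 4OHT-treated cells. For both, every 4OHT-treated sample lay below every untreated one. The log2 fold changes were -0.72 ± 0.09 (SE, edgeR adjusted p = 0.000191) for Arl4a and -0.93 ± 0.20 (edgeR adjusted p = 0.00401) for Arl4d, past the adjusted p and under the minimum fold. Without 4OHT-treated replicate 3 Arl4d reached -1.09 and was called (edgeR adjusted p = 0.00560). With other fits or samples left out it went as far as -0.79, and adjusted p-values (edgeR or DESeq2) reached 0.0959, which did not pass. Arl4d had only 27 to 67 reads a sample here. Arl4c made up 60.5% ± 4.73 (SD, n = 3) of the Arl4 sum per kilobase in untreated and 87.2% ± 0.513 in 4OHT-treated cells, and the shares did not overlap.

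Of the cytohesins, Cyth1 and Cyth3 were higher after 4OHT. Cyth1 measured 3.34, 2.97 and 2.58 CPM in untreated and 7.05, 6.64 and 7.64 CPM in 4OHT-treated cells. Cyth3 measured 11.7, 11.2 and 13.4 CPM in untreated and 22.9, 22.4 and 21.9 CPM in 4OHT-treated cells. Neither gene had overlapping groups. Cyth1 rose 2.40-fold (1.89 to 3.04, log2 fold change 1.26 ± 0.15, SE, edgeR adjusted p = 0.000156). Cyth3 was 1.85-fold higher (log2 fold change 0.89 ± 0.10, edgeR adjusted p = 8.95e-05), under the minimum fold. Cyth2 measured 62.4, 61.5 and 62.3 CPM in untreated and 56.3, 54.1 and 50.8 CPM in 4OHT-treated cells, without overlap, and its log2 fold change of -0.21 did not pass (95% interval -0.34 to -0.07, edgeR adjusted p = 0.0141). With the replicate number as block the edgeR adjusted p of Cyth2 was 0.0040, past that threshold and under the minimum fold. The summed cytohesin level per kilobase was 20.0 ± 0.230 CPM in untreated and 19.8 ± 0.788 in 4OHT-treated cells. Within that sum Cyth1 took 3.79% ± 0.481 against 9.22% ± 0.935 and Cyth3 6.39% ± 0.588 against 12.0% ± 0.192, while Cyth2 took 89.8% ± 0.310 against 78.8% ± 1.10. Arf6 measured 200, 175 and 180 CPM in untreated and 180, 148 and 147 CPM in 4OHT-treated cells, with overlapping groups (log2 fold change -0.23, 95% interval -0.43 to -0.03, edgeR adjusted p = 0.0495). Within replicates 1, 2 and 3 Arf6 was 1.11-fold, 1.18-fold and 1.23-fold lower, and with the replicate block its edgeR adjusted p was 0.000485, again under the minimum fold.

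Markers also differed between the untreated and the 4OHT-treated cells. The ES cell markers summed to 1861 to 2114 CPM in untreated and 1120.2 to 1184 CPM in 4OHT-treated cells, with Sox2 at 284 to 301 and 43.3 to 64.2 CPM. The mesendoderm markers summed to 52.7 to 75.9 CPM in untreated and 336 to 488 CPM in 4OHT-treated cells, a sum that followed T (36.5 to 46.5 and 313 to 448 CPM), while the Eomes samples overlapped. The epiblast markers summed to 967 to 1278 CPM in untreated and 531 to 799 CPM in 4OHT-treated cells, most of it Dnmt3b. Fgf5 of the same list was at 0.796 to 3.68 CPM in untreated and 7.87 to 22.1 CPM in 4OHT-treated cells. The trophoblast sum was 7.65 to 11.8 CPM in untreated and 22.1 to 27.0 CPM in 4OHT-treated cells. It followed Cdx2 (6.51 to 9.87 and 15.1 to 20.8 CPM) and Krt7 (0.307 to 0.318 and 4.58 to 8.41 CPM). Elf5 and Gata3 overlapped between the arms, Hand1 was higher after 4OHT, and the means of Elf5, Gata3 and Hand1 were under 1 CPM. The primitive endoderm sum was 2.098 to 3.56 and 5.15 to 6.16 CPM and followed Pdgfra (0.358 to 0.878 and 2.33 to 3.44 CPM). Sox7 of that list was lower after 4OHT (0.819 to 1.43 and 0.0486 to 0.191 CPM). The fibroblast sum was 18.3 to 26.4 and 8.07 to 11.1 CPM, with Postn at 0 in the untreated cells. It followed Thy1, with means of 22.6 CPM in untreated and 6.25 CPM in 4OHT-treated cells. Col1a2 was higher after 4OHT (0.106 to 0.362 and 2.25 to 3.21 CPM). Col1a1 and Col3a1 were also higher, without overlap. None of these 6 sums overlapped between the arms, and their part in the levels of the members was not tested.

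**Figure D3:**
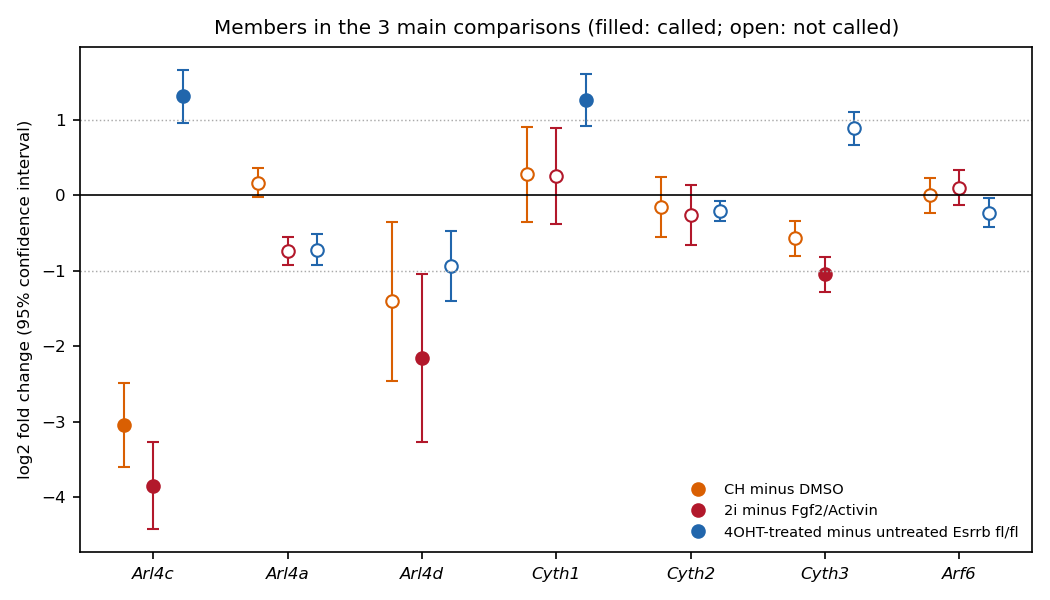
Log2 fold change of each member with its 95% confidence interval in CH minus DMSO, 2i minus Fgf2/Activin and 4OHT-treated minus untreated Esrrb fl/fl cells, with filled symbols for called genes and dotted lines at the minimum fold. Arl4c lies at -3.04, -3.85 and 1.31 in the 3 comparisons, and Cyth1 is filled in the last one alone.

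Counted over the members, 1 of 7 (Arl4c) was called between CH and DMSO, where 17.7% of the 16413 genes tested were called, 7.51% higher and 10.2% lower. By the adjusted p alone it was 2 of 7, against 28.9% of all genes. In 2i against Fgf2/Activin 3 of 7 were called, all lower (Arl4c, Arl4d and Cyth3), against 23.5% of all genes, 9.13% higher and 14.4% lower, and by the adjusted p alone 4 of 7 against 37.7%. After 4OHT 2 of 7 were called, both higher (Arl4c and Cyth1), against 16.7% of the 14893 genes tested, 12.8% higher and 3.87% lower. There the adjusted p alone took 5 of 7 members and 44.5% of all genes, and with the replicate block 7 of 7 members and 56.3% of all genes. These counts were not tested against the background, and over 7 members they describe single genes rather than the route. The median log2 fold change of the members was -0.15, -0.74 and -0.21 in these comparisons, beside medians over all genes tested of -0.0022, 0.0021 and 0.0021.

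The other comparisons share samples with those above, and their counts are given side by side. In 2i against DMSO 3 of 7 were called (Arl4c, Arl4d and Cyth3) against 22.3% of all genes, and 3 of 7 against 35.5% by the adjusted p alone. In CH against Fgf2/Activin it was 1 of 7 (Arl4c) against 18.2%, and 3 of 7 against 30.4%, and without replicate 1 it was 2 of 7, with Arl4d. In 2i against CH 0 of 7 were called by edgeR, where 1.99% of all genes were called and 2.83% by the adjusted p alone. With the replicate block the adjusted p alone took 2 of 7 there (Arl4c and Cyth3) and 9.18% of all genes. There 3 members had an unadjusted p under 0.05, DESeq2 called 1 (Arl4c), and 2 of 7 were called without replicate 1, Arl4c and Arl4d. In Fgf2/Activin against DMSO 0 of 7 were called, against 1.25% of all genes, and 1 of 7 (Arl4a) against 1.8% by the adjusted p alone. There 1 member had an unadjusted p under 0.05, DESeq2 called 0, and 1 of 7 was called without replicate 1 (Arl4a). For the unadjusted p, the DESeq2 test and the fits without replicate 1, no share over all genes is given. The shares above do not serve as background for those counts.

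Genes whose pattern was most like that of Arl4c were taken by the Pearson correlation of log2 levels over the 12 wild-type samples, among 10461 genes. They were Stard10 (r = 0.997), a lipid transfer protein, Cgn (0.997), which encodes the tight junction protein cingulin, Efs (0.996), a Cas-family adaptor, Zfp467 (0.994), a zinc finger protein, and Kif1a (0.994), a kinesin motor. Their points share the 4 cultures and the same libraries. Cgn, for example, had means of 112 ± 28.8 CPM in DMSO (SD, n = 3), 14.1 ± 2.24 in CH, 7.50 ± 0.523 in 2i and 87.1 ± 15.7 in Fgf2/Activin. In the Esrrb fl/fl samples, which were not used for the correlation, 4 of these 5 genes were called higher after 4OHT, where 12.8% of all genes were. That share is over all genes and not over genes lower in CH than in DMSO, as these 5 were (log2 fold changes of -2.93 to -5.53). Arl4c was shortlisted by the study partly on the 4OHT samples, so the count is a description. Kif1a rose there by 3.06 on the log2 scale (edgeR adjusted p = 1.47e-06), Zfp467 by 2.16, Stard10 by 1.63 and Cgn by 1.47, and Efs was at 0.56 (edgeR adjusted p = 0.00544). The nearest patterns to Arl4a were those of Pmepa1 (r = 0.977), Tmem63a (0.977) and Lgr4 (0.973), each highest in Fgf2/Activin. For Lgr4, an R-spondin receptor, the mean was 246 ± 7.65 CPM there and 61.1 ± 8.21 CPM in DMSO. The nearest to Arl4d were Ptpn9 (0.960), Rac3 (0.957) and Ctxn1 (0.956).

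**Figure D4:**
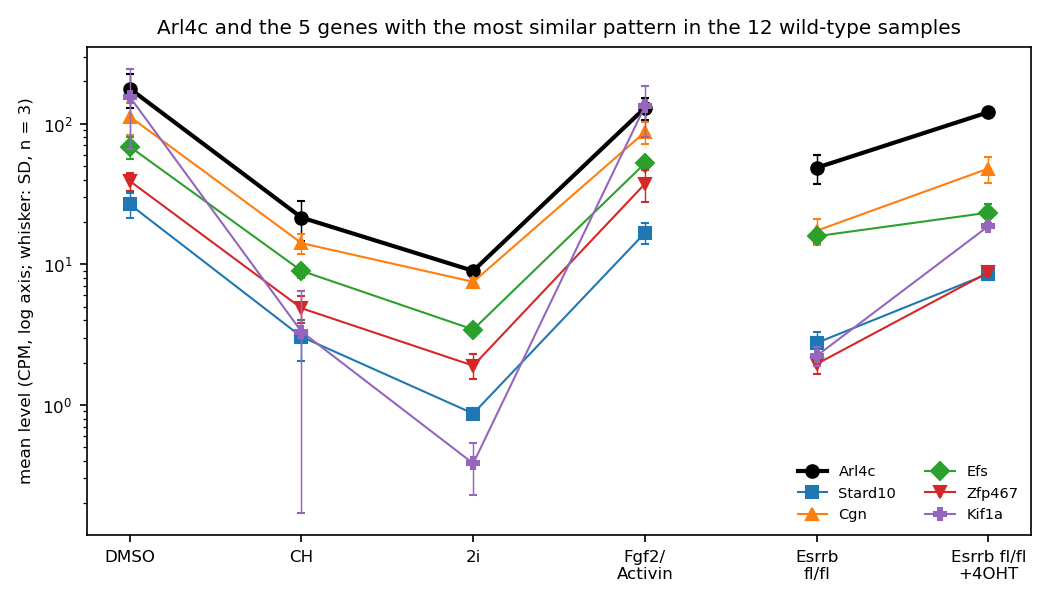
Mean level (CPM, log axis) with SD of 3 samples for Arl4c and the 5 genes with the most similar pattern over the wild-type samples, by group. All 6 genes are lowest in 2i among the wild-type cultures, and Arl4c stands at 48.6 CPM in untreated and 121 CPM in 4OHT-treated Esrrb fl/fl cells.

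The rest of the route was described with 6 lists of 93 genes, of which 91 were tested in the wild-type and 87 in the Esrrb fl/fl samples. Between CH and DMSO 7 were called higher (7.69%) and 9 lower (9.89%), close to the shares over all genes given above. In 2i against Fgf2/Activin 11 were higher and 11 lower (12.1% each), and after 4OHT 13 were higher (14.9%) and 2 lower (2.3%). The 5 other Arf GTPases, Arf1 to Arf5, had no called gene in the 3 comparisons (all genes: 17.7%, 23.5% and 16.7%). After 4OHT Arf2 (0.93), Arf5 (0.67), Arf3 (0.39) and Arf4 (0.26, log2 scale) were higher, past the edgeR adjusted p and under the minimum fold. Arf1, at 0.11, did not pass, and 44.5% of all genes passed that adjusted p.

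The other Arf exchange factors do for Arf proteins what cytohesins do, and several act on Arf6. Of 12 tested, 2 were lower with CH relative to DMSO and none was higher (all genes: 10.2% lower and 7.51% higher), with a list median of -0.41 on the log2 scale against -0.0022 over all genes. Iqsec1, an exchange factor for Arf6, was 2.83-fold lower there (57.2 ± 34.1 to 20.3 ± 4.13 CPM, SD, n = 3, edgeR adjusted p = 0.00580). In 2i against Fgf2/Activin 3 were lower and 1 higher (all genes: 14.4% and 9.13%), with a list median of -0.65 against 0.0021. Iqsec1 fell by 1.38 there and Psd4 by 1.00, while Iqsec2 rose by 1.24. After 4OHT 4 of 10 tested were higher and none lower (all genes: 12.8% and 3.87%), with a median of 0.59 against 0.0021. They included Iqsec2 (3.75-fold, edgeR adjusted p = 3.18e-05), Psd (2.76-fold) and Arfgef1, which acts on Golgi Arf proteins (2.08-fold, 66.1 ± 4.93 to 137 ± 6.85 CPM).

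The GTPase-activating proteins switch Arf proteins off. Of 22 tested, 2 were higher and 2 lower in CH against DMSO (all genes: 7.51% and 10.2%), 4 higher and 3 lower in 2i against Fgf2/Activin (9.13% and 14.4%), and 3 of 21 higher and 1 lower after 4OHT (12.8% and 3.87%). Arap3, which acts on Arf6 and RhoA, had the pattern of Arl4c in all 3 comparisons. It fell by 2.90 in CH against DMSO (8.87 ± 1.79 to 1.18 ± 0.635 CPM, SD, n = 3, edgeR adjusted p = 8.55e-05), was 22.7-fold lower in 2i than in Fgf2/Activin, and rose by 1.78 after 4OHT (edgeR adjusted p = 0.000306), on the log2 scale. Asap2 fell by 1.52 in CH against DMSO. Git2, a scaffold that binds Pix exchange factors, rose by 1.16 in CH against DMSO and by 1.55 in 2i against Fgf2/Activin, and Adap2 rose by 2.06 and 2.75 from levels under 1 CPM. Adap1 fell by 2.52 after 4OHT (21.4 ± 9.11 to 3.73 ± 0.498 CPM, edgeR adjusted p = 0.000130).

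The effectors of Arf6 and the partners of cytohesins held changes in both directions. Of 18 tested, 3 were higher and 4 lower in CH against DMSO (all genes: 7.51% and 10.2%) and likewise in 2i against Fgf2/Activin (9.13% and 14.4%), and after 4OHT 5 of 17 were higher and 1 lower (12.8% and 3.87%). Pip5k1b, a kinase that makes the phosphoinositide PI(4,5)P2, rose by 3.65 in CH against DMSO (1.54 ± 0.356 to 19.2 ± 2.03 CPM, SD, n = 3, edgeR adjusted p = 6.80e-08) and by 4.66 in 2i against Fgf2/Activin, and fell by 1.46 after 4OHT (edgeR adjusted p = 4.17e-05). This was the opposite of Arl4c in each of the 3 comparisons. Frmd4b, which binds Cyth3 in epithelial cells, rose by 2.84 in CH against DMSO and by 2.91 in 2i against Fgf2/Activin. Cnksr1, a scaffold that binds cytohesins, fell by 2.61 and 2.69 in those comparisons. Micall1, a recycling endosome protein that Arf6 brings to the membrane, fell by 2.02 and 2.22 in those comparisons and rose by 1.89 after 4OHT. Frmd4b and Cnksr1 were also called higher after 4OHT, by 1.14 (edgeR adjusted p = 5.72e-06) and 1.24 (edgeR adjusted p = 0.00511). Pld2, a phospholipase D that Arf proteins activate, rose 4.43-fold after 4OHT, and Grasp, which encodes the cytohesin-binding protein tamalin, 2.64-fold.

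In the Cdc42 and Rac list 1 of 17 was called between CH and DMSO, where 17.7% of all genes were, 2 of 17 in 2i against Fgf2/Activin (23.5%) and 1 of 17 after 4OHT (16.7%). It was Iqgap1, a scaffold that binds GTP-loaded Cdc42 and Rac, which fell by 1.67 on the log2 scale (552 ± 23.2 to 173 ± 16.7 CPM, SD, n = 3, edgeR adjusted p = 2.23e-07). Arhgap17, a GTPase-activating protein for Cdc42 and Rac, rose by 1.27 in 2i against Fgf2/Activin, where Rac3 fell by 1.02. After 4OHT Rhoq, a GTPase close to Cdc42, rose by 1.03. Of the other Arf-like genes Arl15 rose by 1.09 in CH against DMSO and by 1.14 in 2i against Fgf2/Activin, with 2 of 17 called higher and none lower in each (all genes: 7.51% and 9.13% higher), and after 4OHT 0 of 17 were called (all genes: 16.7%).

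**Figure D5:**
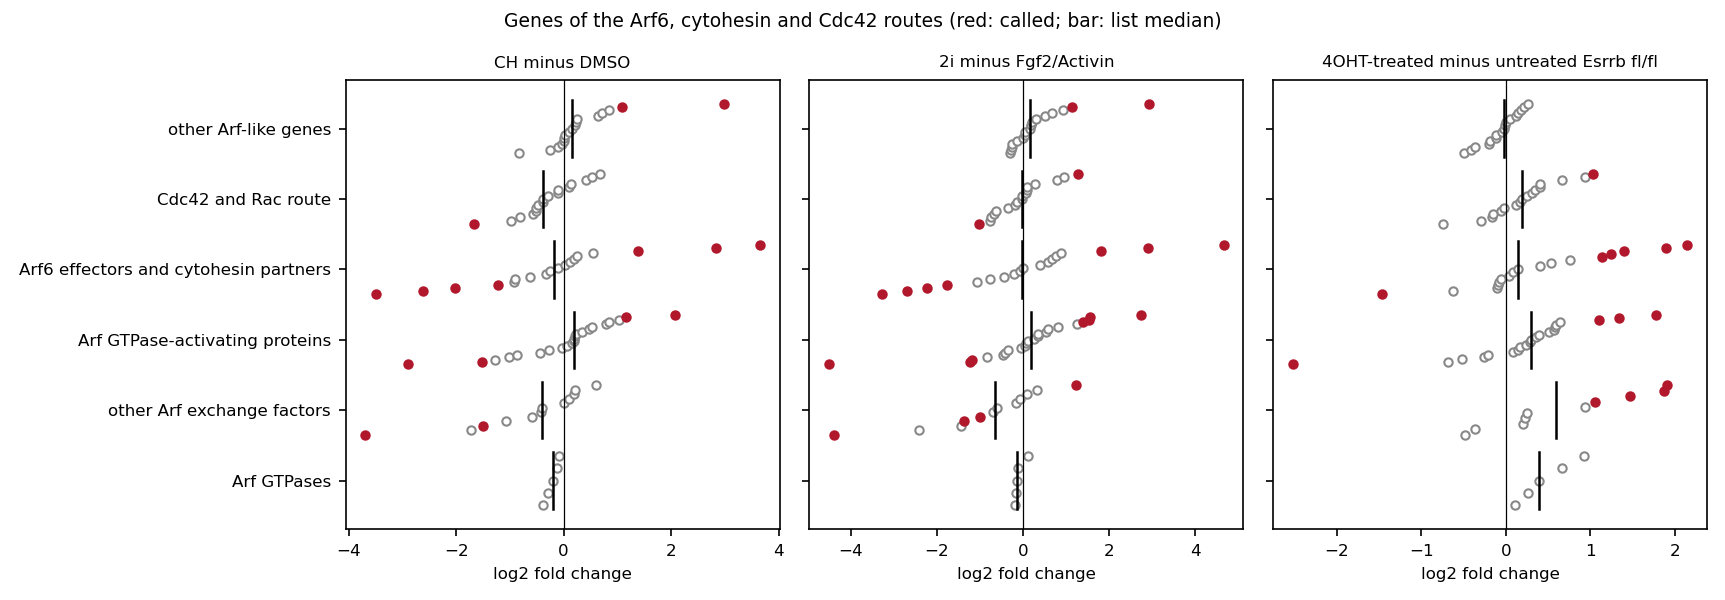
Log2 fold change of each tested gene of the 6 lists in CH minus DMSO, 2i minus Fgf2/Activin and 4OHT-treated minus untreated Esrrb fl/fl cells, with called genes in red and a bar at the median of each list. Called genes of the GTPase-activating protein and effector lists lie on both sides of 0 in all 3 comparisons, and the exchange factor medians are -0.41, -0.65 and 0.59.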

How the data were processed

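RNA was sequenced in 18 samples. The deposited file holds raw counts per Ensembl gene, which the authors made by aligning reads to mm10 with TopHat2 and counting them over GRCm38 genes with HTSeq without regard to strand, although the library kit keeps strand. The Ensembl release is not given in the sources used here. Groups were taken from the sample titles, and gene symbols, positions and exon lengths from the GRCm38 annotation. The members and lists were chosen with earlier results of these data known.

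Counts were scaled by TMM, filtered with filterByExpr and fitted in edgeR 4.0.16 (R 4.3.3), the 12 wild-type samples in 1 fit and the 6 Esrrb fl/fl samples in another, with the thresholds of the study's methods (adjusted p under 0.01, absolute log2 fold change above 1). The label numbers are taken as separate samples, and p-values measure the spread between them, which may be technical. On simulated counts the fit recovered 100 of 100 genes changed by 1.5 on the log2 scale among 15569 genes (CH against DMSO) and 99 of 100 among 14838 (4OHT). The simulation gave all genes the same spread and replicate 1 no offset, and it changed only genes above a minimum mean count. It used only the samples of the 2 groups compared. It checks the code and does not show what could be detected in the measured counts, where replicate 1 stood apart. Samples with the same number deviated together from their group means (correlations of 0.37 to 0.825 over 18 pairs in the wild-type and 0.347 to 0.545 over 3 pairs in the Esrrb fl/fl cultures). Those with different numbers had correlations of -0.783 to 0.711 over 36 pairs and -0.468 to 0.404 over 6 pairs. The positive ones were between replicates 2 and 3, for example 0.449 for DMSO 2 with CH 3, beside 0.446 for DMSO 2 with CH 2. The deviations thus set replicate 1 apart, and whether replicates 2 and 3 are paired by number cannot be told. The labels state no pairing.

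All 7 members are reported in every group. From each list at most the 4 called genes with the largest change and a mean of at least 1 CPM are named per main comparison, and by likeness the 5 genes nearest to Arl4c and the 3 nearest to Arl4a and Arl4d, each with a mean above the minimum of 5 CPM. The values of Frmd4b and Cnksr1 after 4OHT and those of Arf1 to Arf5 are given in addition. The correlations use log2(CPM + 1). Confidence intervals are at 95%. Alternatives were DESeq2 size factors, the DESeq2 1.42.0 test, no filter on low counts, no minimum fold, the replicate number as a block, other sample sets in the fit and leaving out each sample. The fit without replicate 1 and the replicate block without a minimum fold were added after seeing the data. Identities were computed with Biopython 1.88 from the annotated coding sequences.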

Additional observations from a re-analysis of the deposited data

How the results depend on the processing

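Of the members' log2 fold changes, 279 values under other settings kept their direction and side of the threshold, 11 newly passed it and 4 reversed. With samples left out 305 kept both, 10 newly passed, 7 no longer passed and 21 reversed. Without a minimum fold the called members went to 2 (CH against DMSO), 4 (2i against Fgf2/Activin), 5 (4OHT), 1 (Fgf2/Activin against DMSO) and 3 (CH against Fgf2/Activin), and stayed at 3 in 2i against DMSO and 0 in 2i against CH. With the replicate block as well, a pair of choices added after seeing the data, they were 2, 4, 7, 1, 3, 3 and 2. In 2i against CH 1 member was called with no filter on low counts, with the replicate block and by the DESeq2 test, each time Arl4c, and with the minimum fold the replicate block changed no other call of a member. With samples left out, the called members ranged from 1 to 2 (CH against DMSO), 2 to 3 (2i against Fgf2/Activin), 2 to 3 (4OHT), 0 to 2 (2i against CH), 0 to 1 (Fgf2/Activin against DMSO), 2 to 3 (2i against DMSO) and 1 to 2 (CH against Fgf2/Activin). The reversed signs were all of members that were not called and lay near 0. Arf6 in CH against DMSO was at -0.00587 with DESeq2 size factors, -0.00421 with the replicate block, -0.00789 by the DESeq2 test and -0.000892 in the 6 samples compared alone. With samples left out its log2 fold change ranged from -0.0678 to 0.110 there, -0.0296 to 0.153 in 2i against CH, -0.0889 to 0.0462 in Fgf2/Activin against DMSO and -0.0524 to 0.133 in CH against Fgf2/Activin. That of Cyth1 ranged from -0.311 to 0.0797 in 2i against CH, -0.354 to 0.216 in Fgf2/Activin against DMSO and -0.0962 to 0.472 in 2i against DMSO. That of Cyth2 ranged from -0.285 to 0.0130 in CH against DMSO, -0.243 to 0.0736 in 2i against CH and -0.103 to 0.130 in Fgf2/Activin against DMSO, and that of Cyth3 from -0.0896 to 0.0381 in the latter. The cause of these differences was not tested. The 3 samples a group and the low counts of Arl4d and Cyth1 limit what could be detected.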
